A study of Mus musculus with 2116 samples.

Results

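The 5 genes of the Ikaros family, Ikzf1 to Ikzf5, were read by symbol from a table of 23725 genes and 2116 single CD4+ T cells of the mouse spleen, and all 5 were present. The cells came from male mice of the strain B6 Foxp3-Ires-Gfp, 8 months old, in which a green fluorescent protein reports the Treg factor Foxp3, and no treatment is named. Cells were captured in droplets with the inDrops method, which copies RNA from its poly(A) end and tags each molecule with a random identifier, the UMI. The groups are given by the cell titles, TR and TC, read with the series title as regulatory T cells (Treg, 816 cells) and conventional CD4+ T cells (Tconv, 1300 cells), sorted as living cells positive for TCRb and CD4. Each group is 1 library, neither the number of animals nor any pooling is stated, and the written sort gate gives GFP+ cells for both groups, so the labels were checked on Foxp3 itself.

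Ikaros family proteins are zinc finger transcription factors. A block of fingers near the start of the protein binds DNA, and a pair of fingers at its end lets members join each other or themselves. Ikzf1 encodes Ikaros, needed for lymphocyte development. Ikzf2 encodes Helios, known as a factor of regulatory T cells, Ikzf3 encodes Aiolos, first known from B cells, Ikzf4 encodes Eos, a partner of Foxp3 in gene silencing, and Ikzf5 encodes Pegasus, the most distant member. Ikaros is known to act with the NuRD chromatin remodelling complex, and Ikaros and Aiolos are proteins that cereblon, part of a ubiquitin ligase, marks for destruction in human cells treated with lenalidomide.

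On the mouse genome build GRCm38 (mm10), with GENCODE M21 annotation, Ikzf1 lies at chr11:11685003-11772926 on the plus strand. The other members lie on the minus strand, Ikzf2 at chr1:69531214-69687245, Ikzf3 at chr11:98464902-98546031, Ikzf4 at chr10:128630843-128645991 and Ikzf5 at chr7:131388652-131410521. The coding bases of 1 DNA-binding finger are shown because they let a reader see how close the members are. Each run of 63 bases comes from the member's longest complete coding sequence among GENCODE M21 transcripts and is the finger most like the second finger of Ikzf1, given 5′ to 3′ on the coding strand. Capitals mark the codons of the 2 cysteines and 2 histidines that hold the zinc ion.
Ikzf1: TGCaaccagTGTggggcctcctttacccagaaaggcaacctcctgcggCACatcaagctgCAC
Ikzf2: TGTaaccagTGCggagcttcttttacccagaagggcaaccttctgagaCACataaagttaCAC
Ikzf3: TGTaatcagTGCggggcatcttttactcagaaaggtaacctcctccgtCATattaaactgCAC
Ikzf4: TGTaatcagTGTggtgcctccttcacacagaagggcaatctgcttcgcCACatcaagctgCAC
Ikzf5: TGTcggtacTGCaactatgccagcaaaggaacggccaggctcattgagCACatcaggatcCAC

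The pairs among Ikzf1, Ikzf2, Ikzf3 and Ikzf4 shared 48 to 53 of the 63 bases (76.2% to 84.1%), and in each of these pairs all 21 codons stood for the same residue. Ikzf5 shared 25 to 32 bases (39.7% to 50.8%) with the other members and 6 of 21 codons in meaning. Over whole annotated transcripts, no exact stretch longer than 32 bases was common to any pair of members, and that one was between Ikzf2 and Ikzf4. The strand used in counting is not stated, so reads from genes that overlap a member on the other strand could not be separated.

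UMIs numbered 1468203 in the Treg library and 2002752 in the Tconv library, with medians of 1688.5 and 1510.5 per cell and 31.3 and 18.7 mapped reads per UMI. Foxp3, at 3.80 (3.49 to 4.13) per 10000 UMIs in Treg and 0.0300 (0.0110 to 0.0652) in Tconv, followed the labels. Markers of other cell types (7 lists) reached 3 UMIs in 4.53% of Treg and 1.62% of Tconv cells, ribosomal protein genes took 26.1% and 32.6% of UMIs, and 12 cell barcodes occurred in both libraries. With 1 library a group there is no test between groups, and library and group cannot be told apart. Values in parentheses after a level, share or ratio are exact 95% intervals that cover counting error only, and they are too narrow because UMIs were clumped in cells.

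In the Treg library 3 members stood higher and 2 lower than in the Tconv library. As shares of all UMIs, Ikzf2 (Helios) was 14.3-fold higher, Ikzf4 (Eos) 7.84-fold higher and Ikzf3 (Aiolos) 3.47-fold higher. Ikzf1 (Ikaros) was 1.54-fold lower, and Ikzf5 (Pegasus) was lower by less than its counting error. A 2-fold difference was thus passed by 3 of 5 members, all higher in Treg. Of the 8988 genes with 20 UMIs or more, 8.61% were 2-fold or more higher in Treg and 3.6% 2-fold or more lower, with a median log2 ratio of 0.14.

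Helios stood at 3.72 (3.41 to 4.04) per 10000 UMIs in Treg and 0.260 (0.194 to 0.340) in Tconv. The log2 ratio was 3.84 (3.43 to 4.28), and the libraries' intervals lay far apart. Nrp1, a surface receptor that like Helios is used as a mark of Tregs made in the thymus, had a log2 ratio of 3.62 (3.02 to 4.28).

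Eos, from 46 UMIs in Treg and 8 in Tconv, stood at 0.313 (0.229 to 0.418) and 0.0399 (0.0172 to 0.0787) per 10000 UMIs, a log2 ratio of 2.97 (1.87 to 4.27). The 8 Tconv UMIs were in 8 different cells. Aiolos, from 56 and 22 UMIs, stood at 0.381 (0.288 to 0.495) and 0.110 (0.0688 to 0.166) per 10000 UMIs, a log2 ratio of 1.80 (1.06 to 2.58). Both genes rested on few molecules, and the intervals of their ratios overlapped.

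Ikaros went the other way, with 2.11 (1.88 to 2.36) per 10000 UMIs in Treg and 3.25 (3.01 to 3.51) in Tconv. Its log2 ratio was -0.62 (-0.82 to -0.43), below the median of all genes. Pegasus, from 43 and 78 UMIs, stood at 0.293 (0.212 to 0.395) and 0.389 (0.308 to 0.486) per 10000 UMIs, a log2 ratio of -0.41 (-0.98 to 0.14), so that a difference was not detectable at this depth.

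**Figure D1:**
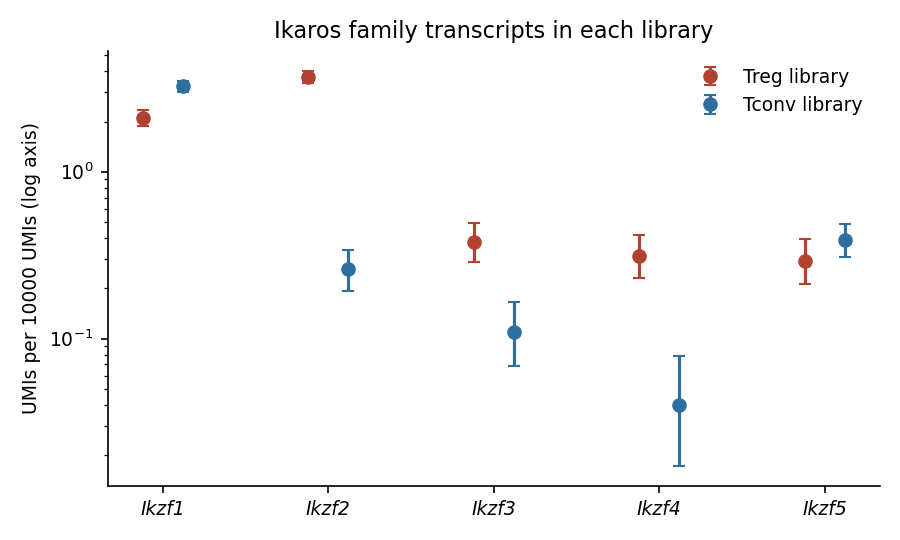
Level of each Ikaros family gene in UMIs per 10000 UMIs on a log axis, with exact Poisson 95% intervals that cover counting error only; each point is 1 library. Treg points sit above Tconv points for Ikzf2, Ikzf3 and Ikzf4 and below for Ikzf1, and the intervals overlap for Ikzf5.

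To compare shares of cells at equal depth, each cell with 1000 UMIs or more was thinned at random to 1000. This left out 78 of 816 Treg cells and 14.8% of Tconv cells. An Ikzf2 UMI was then present in 21.1% (18.2% to 24.3%) of cells in the Treg library and 1.71% (1.04% to 2.66%) in the Tconv library, and with all UMIs in 29.4% and 2.31%. Treg library cells with 3 or more B cell marker UMIs were read as a measure of background. Whether they also held T cell RNA was not tested. An Ikzf2 UMI was present in 0 of 17 such cells at a median depth of 2125 UMIs, which allows a share of up to 19.5%. That limit is wide and lies above the Tconv share, so background from free RNA was not separated from Helios in Tconv cells.

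Ikzf1 was present in 15.7% (13.2% to 18.5%) of thinned cells in Treg against 24% (21.5% to 26.6%) in Tconv, or 21.3% and 33.5% with all UMIs. Ikzf3 was present in 3.25% (2.09% to 4.80%) against 0.632% (0.254% to 1.30%), or 4.29% and 1.23% with all UMIs. Ikzf4 was present in 3.12% (1.99% to 4.64%) against 0.451% (0.147% to 1.05%), or 4.29% and 0.615% with all UMIs. For each of these 3 genes the intervals of the libraries did not overlap. Ikzf5 was present in 2.98% (1.88% to 4.48%) against 3.88% (2.82% to 5.19%), or 3.92% and 5.62% with all UMIs, and its intervals overlapped.

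The members differed in how their UMIs were spread over cells. Of the 240 Treg cells with an Ikzf2 UMI, 47.5% had more than 1, 42 cells had exactly 2, 72 had 3 or more, and the richest had 11. Of the 30 such Tconv cells, 21 had 1 UMI, 4 had 2 and 5 had 3 or more, and a single cell with 9 held 17.3% of all Tconv Ikzf2 UMIs. Without the cell richest in Ikzf2 in each library the log2 ratio between libraries was 4.09.

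The Fano factor divides the variance of a gene's UMIs over cells by their mean, and is 1 for independent counts. In thinned Treg cells it was 2.06 for Ikzf1 and 2.02 for Ikzf2, beside a median of 1.63 over 6121 genes, of which 25.5% and 27.5% lay higher. In Tconv it was 2.26 for Ikzf2, with 3.01% of 5648 genes higher, 1.36 for Ikzf1 and 1.05 for Ikzf5, beside a median of 1.31. Helios was therefore among the more clumped genes of the Tconv library, and Pegasus close to even.

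**Figure D2:**
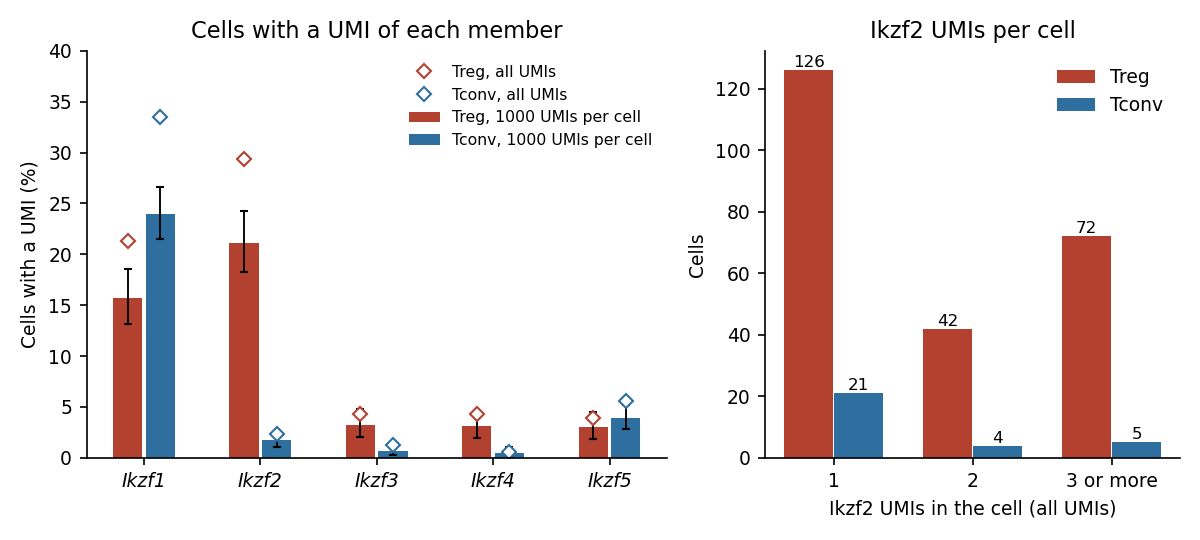
Left, percentage of cells with a UMI of each member, as bars at 1000 UMIs per cell with exact 95% intervals and as diamonds with all UMIs; right, number of cells with 1, 2 or at least 3 Ikzf2 UMIs. Ikzf2 was present in 21.1% of thinned Treg and 1.71% of thinned Tconv cells, and 72 Treg cells held 3 or more of its UMIs.

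Most cells in which the family was seen showed 1 member. At 1000 UMIs, 59.5% of Treg cells had a UMI of no member, 35.2% of 1, 4.88% of 2 and 0.407% of 3. In Tconv, 71.6% of cells had none, 26.2% had 1 and 2.26% had 2. Ikaros was present in 12.2% (7.49% to 18.4%) of Treg cells with a Helios UMI and 16.7% (13.7% to 19.9%) of those without. Eos was present in 4.49% (1.82% to 9.03%) of Treg cells with a Helios UMI and 2.75% (1.58% to 4.43%) of those without. Aiolos was present in 1.92% (0.398% to 5.52%) of Treg cells with a Helios UMI and 3.61% (2.25% to 5.46%) of those without. All 3 pairs of intervals overlapped, so neither joint nor separate presence of members was detectable at this depth.

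Treg cells with a Helios UMI, 21.1% of the thinned cells, were then set beside the 582 Treg cells without one. They carried more UMIs of Treg signature, TCR response, effector and follicular helper genes and fewer of genes typical of conventional and resting T cells, while Foxp3 and T lineage genes were level. A cell without a UMI can still express the gene, so the classes differ in the chance of Helios and are not pure. Thinning is itself random, and each comparison was therefore repeated over 50 thinning draws, whose median, or range where given, follows the word draws beside the first draw's list and gene ratios.

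Foxp3 was present in 27.6% and 28.5% of the cells with and without a Helios UMI, at 37.8 and 42.3 UMIs per 100 cells. Its log2 ratio was -0.16 (-0.59 to 0.26, draws 0.12). The 10 T lineage genes in the table, which include Cd4 and Lck, gave a log2 ratio of -0.01 (-0.12 to 0.10) for their summed UMIs, over draws median 0.04, range -0.10 to 0.14.

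The Treg signature, 28 genes known to be high in Tregs and without any Ikaros family gene, averaged 7.04 and 4.36 UMIs per cell with and without a Helios UMI. The log2 ratio was 0.69 (0.59 to 0.80), and over draws median 0.64, range 0.45 to 0.81. Of 22 signature genes with 20 or more thinned UMIs, 5 were 2-fold or more higher, 1 was 2-fold or more lower and 19 lay above 0, with a median of 0.72. Among all 5150 such genes 5.84% were 2-fold or more higher, 10.3% 2-fold or more lower and 50.4% above 0, with a median of 0.01.

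The signature holds receptors of the TNF receptor family, which carry costimulation to T cells; of the 4 given here, Tnfrsf1b and Tnfrsf4 were chosen after their values were seen. Tnfrsf9 (4-1BB) had 33.3 and 9.45 UMIs per 100 cells and a log2 ratio of 1.82 (1.25 to 2.39, draws 1.62). Tnfrsf1b (TNFR2), with 23.7 and 10.7 per 100 cells, had a log2 ratio of 1.16 (0.53 to 1.77, draws 1.19), and Tnfrsf4 (OX40), with 45.5 and 22.9, one of 1.0 (0.56 to 1.42, draws 1.12). Tnfrsf18 (GITR) gave 0.58 (0.14 to 1.0, draws 0.82). Each of the 4 was above 0 in all 50 draws.

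Cd83, the signature gene that was 2-fold or more lower, rested on 4 and 30 UMIs and gave -1.01 (-2.97 to 0.50, draws -0.14). Izumo1r (folate receptor 4) was present in 65.4% and 46.2% of cells and had a log2 ratio of 0.81 (0.62 to 1.0, draws 0.54). Il2rb, the beta chain of the IL-2 receptor, gave 0.82 (0.46 to 1.18, draws 0.69), while Il2ra, its alpha chain, gave 0.19 (-0.20 to 0.57, draws 0.41). Nrp1, with 21.8 and 12.2 UMIs per 100 cells, gave 0.84 (0.20 to 1.45, draws 0.77), with draws from -0.06 to 1.33.

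The effector or memory list, which holds S100, annexin and integrin genes, had a log2 ratio of 0.64 (0.53 to 0.76). This value was near the upper end of the draws (median 0.48, range 0.22 to 0.65). Of its 16 measured genes, 6 were 2-fold or more higher, 0 were 2-fold or more lower and 3 lay below 0. Over all 5150 genes, 5.84% were 2-fold or more higher and 10.3% 2-fold or more lower. S100a6, a calcium-binding protein, had 75.6 and 29.2 UMIs per 100 cells and a log2 ratio of 1.38 (1.02 to 1.72, draws 1.10). S100a4 gave 1.5 (0.96 to 2.04, draws 0.94), and the integrin chain Itgal gave 0.99 (0.56 to 1.42, draws 0.53). Crip1, a small zinc-binding protein of memory cells, was level at -0.03 (-0.34 to 0.27, draws 0.16). Also below 0 were the adhesion receptor Cd44, a usual marker of effector and memory T cells, at -0.16 (-1.26 to 0.81, draws -0.87), and the scaffold gene Ahnak at -0.17 (-0.82 to 0.43, draws -0.12). Cd44 lay above 0 in 4 of 50 draws.

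The TCR response list, genes induced through the T cell receptor, gave a log2 ratio of 0.56 (0.36 to 0.76), over draws median 0.64, range 0.35 to 1.0. Of its 11 measured genes, 2 were 2-fold or more higher, 2 were 2-fold or more lower and 9 lay above 0. Over all 5150 genes the shares were 5.84%, 10.3% and 50.4%. It shares Tnfrsf9 and Cd83 with the Treg signature. The list averaged 1.90 and 1.29 UMIs per cell, and Tnfrsf9 alone had 33.3 and 9.45 per 100 cells. The follicular helper list gave 1.02 (0.75 to 1.28), over draws median 0.76, range 0.32 to 1.14. Its leading gene was Tox, a nuclear factor of chronically stimulated and follicular T cells, present in 16% and 5.50% of cells. The Tox ratio of 1.79 (1.29 to 2.30, draws 1.01) was the highest of draws that ran from 0.13 to 1.79. Icos, a costimulatory receptor of follicular helper cells, gave 1.24 (0.65 to 1.81, draws 0.79), and the adaptor Sh2d1a gave 1.16 (0.53 to 1.78, draws 1.31). Icos is also in the signature and effector lists. The receptor Slamf6 gave -1.42 (-2.92 to -0.21, draws -0.90), and 4 of the 6 measured genes of the list lay above 0.

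Genes typical of conventional T cells averaged 0.769 and 1.56 UMIs per cell with and without a Helios UMI, a log2 ratio of -1.02 (-1.31 to -0.74), over draws median -0.89, range -1.08 to -0.66. Of the 13 list genes 9 could be measured, all 9 lay below 0, and 4 were 2-fold or more lower. Over all 5150 genes, 50.4% lay above 0 and 10.3% were 2-fold or more lower. Satb1, a chromatin organiser of T cells, was present in 11.5% and 26.6% of cells. Its log2 ratio was -1.34 (-1.90 to -0.82, draws -1.20), and it was 2-fold or more lower in 46 of 50 draws. Bach2, a repressor of effector genes, gave -1.62 (-2.88 to -0.58, draws -1.43).

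The resting list gave -0.36 (-0.52 to -0.21), over draws median -0.40, range -0.59 to -0.24, and it shares Satb1, Bach2, Lef1, Tcf7 and Il7r with the list above. Within it S1pr1, the receptor for exit from lymphoid organs, gave -1.17 (-1.73 to -0.64, draws -0.76). Klf2, a factor of resting T cells, gave -0.12 (-0.55 to 0.29, draws -0.08).

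In the NuRD and co-repressor list and the Foxp3 partner list, single members went both ways. The NuRD and co-repressor list gave 0.25 (0.08 to 0.42), over draws median 0.16, range -0.02 to 0.40. Chd4, the remodelling ATPase of NuRD, gave 0.64 (0.31 to 0.95, draws 0.44), while Hdac1, its histone deacetylase, gave -0.26 (-0.90 to 0.33, draws -0.37). The co-repressor Sin3a, the list's 1 gene that was 2-fold or more lower, gave -1.91 (-5.02 to 0.08, draws -1.94) from 2 and 28 UMIs. It lay below 0 in all 50 draws, but its interval held 0. The cereblon ligase list gave 0.24 (-0.15 to 0.62), over draws median 0.15, range -0.28 to 0.41. The Foxp3 partner list gave -0.13 (-0.27 to 0.01), over draws median -0.12, range -0.24 to -0.02, and so lay slightly below 0 in every draw. Of its 15 measured genes, 6 lay above 0 and 9 below. It shares Satb1, Bach2, Lef1 and Tcf7 with the list of conventional T cell genes. Satb1 alone had 21.2 and 53.6 UMIs per 100 cells with and without a Helios UMI. The partner list without these shared genes was not tested.

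Helper lineage, proliferation and interferon lists gave 0.02, -0.18 and -0.04, with intervals that held 0 and medians over draws of 0.15, 0.04 and 0.10. The Notch list gave 0.00 (-0.39 to 0.38), over draws median -0.16, range -0.58 to 0.19, a sum over members that went both ways, and the median of its gene ratios was 0.55. The receptor Notch1 gave 0.88 (0.17 to 1.55, draws 0.88) and its nuclear partner Rbpj 1.04 (-0.17 to 2.17, draws 1.28), both above 0 in all 50 draws. Dtx1, a ubiquitin ligase of the pathway, gave -0.55 (-1.27 to 0.12, draws -0.89) and lay below 0 in all 50. The intervals of Rbpj and Dtx1 held 0. Il2, a gene that Helios, Aiolos and Eos are known to silence, had 0 UMIs in either library.

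**Figure D3:**
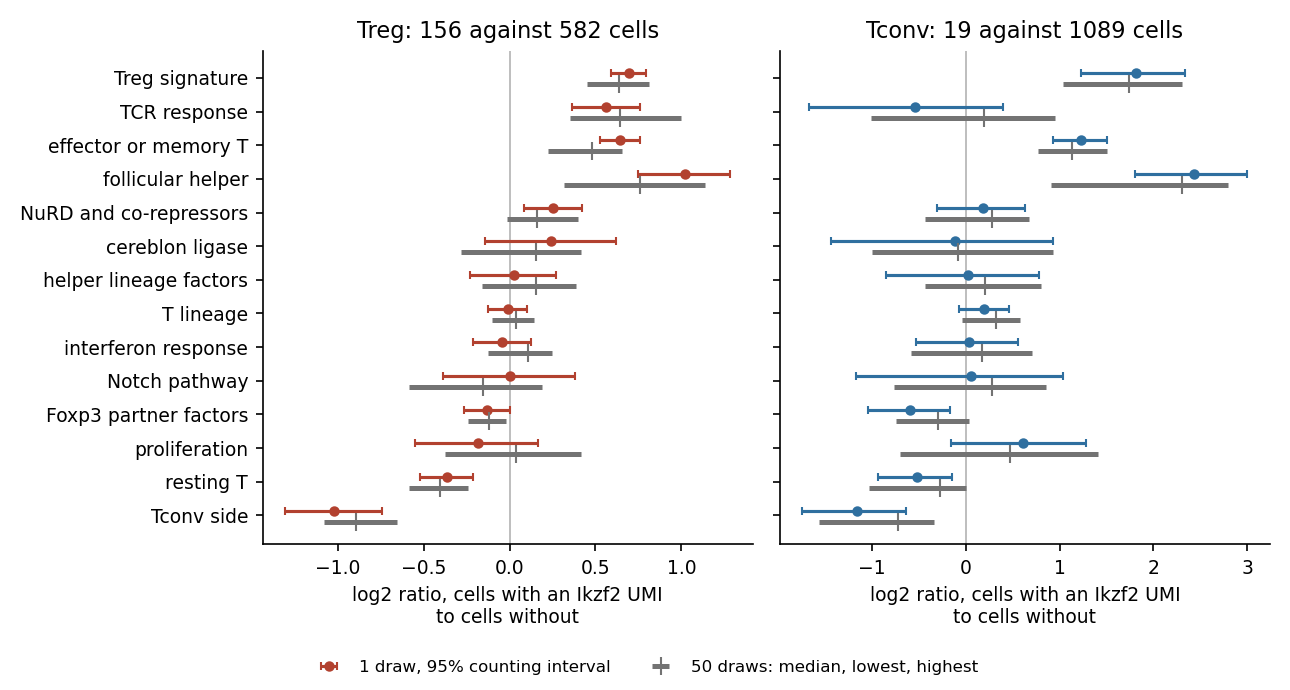
Log2 ratio of summed list UMIs between cells with and without an Ikzf2 UMI, Treg left and Tconv right; points are the first thinning draw with exact 95% intervals, grey bars the median and range of 50 draws. In Treg the signature list sits at 0.69 and the Tconv list at -1.02, while T lineage sits at -0.01.

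Across the 2473 genes with 50 or more thinned UMIs in Treg, 2.55% were 2-fold or more higher in Helios UMI cells and 4.16% 2-fold or more lower. The 10 higher genes ranked first, by the interval bound nearest to level, were Tox, Bcl2a1b, Tnfrsf9, Dnmt3a, S100a6, Arih1, S100a4, Mrpl52, Cd9 and Lrba. They were ranked on the first draw, and the median over draws was nearer to 0 for 10 of the 10. Of them, 6 were higher in every draw, and 2, Bcl2a1b and Tnfrsf9, were 2-fold or more higher in 45 draws or more. Bcl2a1b, a survival gene of the BCL2 family with near-identical copies among which reads may have been divided, had 30.8 and 8.42 UMIs per 100 cells and a log2 ratio of 1.87 (1.27 to 2.48, draws 1.86). Dnmt3a, a DNA methyltransferase, gave 1.90 (1.04 to 2.76, draws 0.75), with draws from -0.64 to 1.90. Lrba, which protects CTLA4 from breakdown, gave 1.48 (0.83 to 2.11, draws 1.13).

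Of the 10 lower genes, H2-Eb1, H2-Aa and Cd79a are B cell genes and Hba-a2 is a globin. Each had 1 UMI in the Helios UMI cells, and they were present in 2.06%, 2.23%, 1.72% and 1.03% of the other Treg cells. Cells with 3 or more UMIs of another cell type's markers made up 3.21% of Helios UMI cells and 4.47% of the others. Without such cells the signature ratio was 0.68 and that of the Tconv list -1.08. The remaining lower genes were Fam117a, Rbm4b, Pdlim1, Anapc11, Faah and Satb1. The medians over draws were -1.75 for Fam117a and -1.71 for Pdlim1, and all 10 lower genes were lower in every draw.

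**Figure D4:**
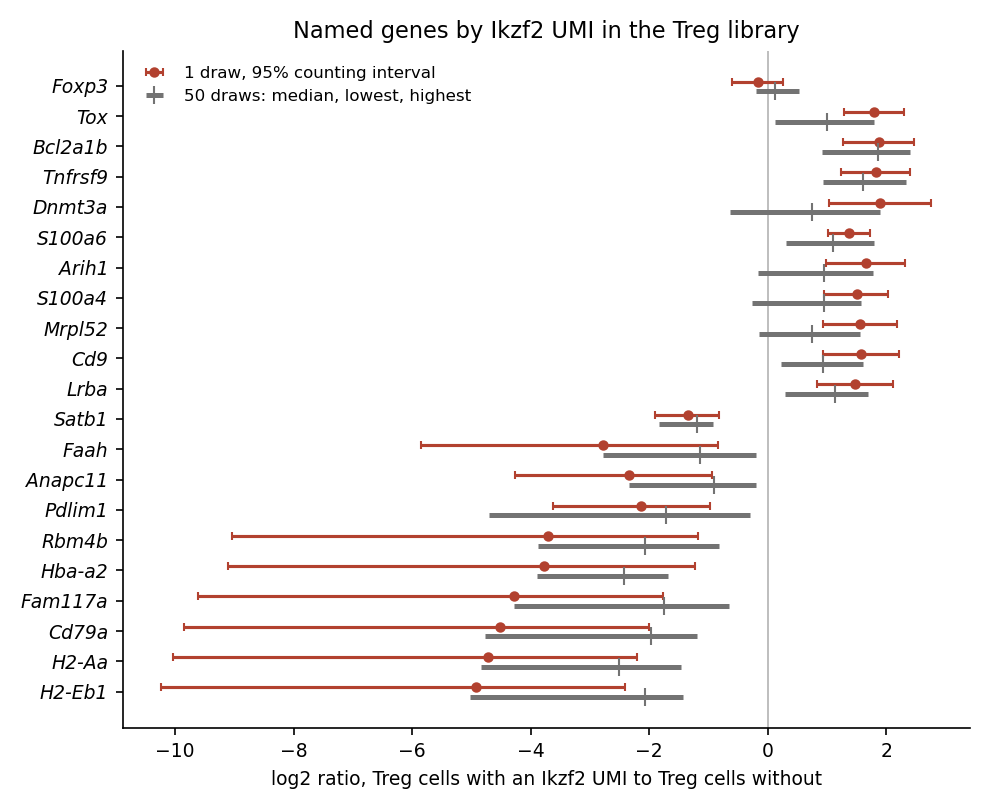
Log2 ratio between Treg cells with and without an Ikzf2 UMI for the genes named by rank and for Foxp3; points are the first draw with exact 95% intervals, grey bars the median and range over 50 draws. Foxp3 lies near 0, and Bcl2a1b and Tnfrsf9 keep medians of 1.86 and 1.62.

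The classes were alike in depth, with medians of 1836 UMIs in Helios UMI cells and 1744 in the others and 31.7 and 31.4 mapped reads per UMI. Ribosomal protein genes took 24.1% and 26.7% of thinned UMIs. With those genes left out of the total the signature ratio was 0.65 and that of the Tconv list -1.07.

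Read the other way, the share of Treg cells with a Helios UMI was larger in cells with more signature UMIs. It was 7.59% (2.84% to 15.8%) in cells without a signature UMI, 12.7% (8.94% to 17.4%) with 1 to 3, 24.9% (19.5% to 31%) with 4 to 7 and 35.3% (28.1% to 43.1%) with 8 or more. By effector list UMIs it was 15.4% (11.2% to 20.4%) with 0 or 1, 18.7% (14.3% to 23.7%) with 2 to 4 and 32.5% (25.9% to 39.6%) with 5 or more. For both lists the intervals of the first and last class did not overlap. By resting list UMIs it was 25% (19.7% to 30.9%) with 0 or 1, 22.9% (18.2% to 28.2%) with 2 to 4 and 13.6% (9.18% to 19.2%) with 5 or more. Cells with and without a Foxp3 UMI gave 20.6% (15.3% to 26.7%) and 21.4% (17.9% to 25.1%), which overlapped almost wholly.

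**Figure D5:**
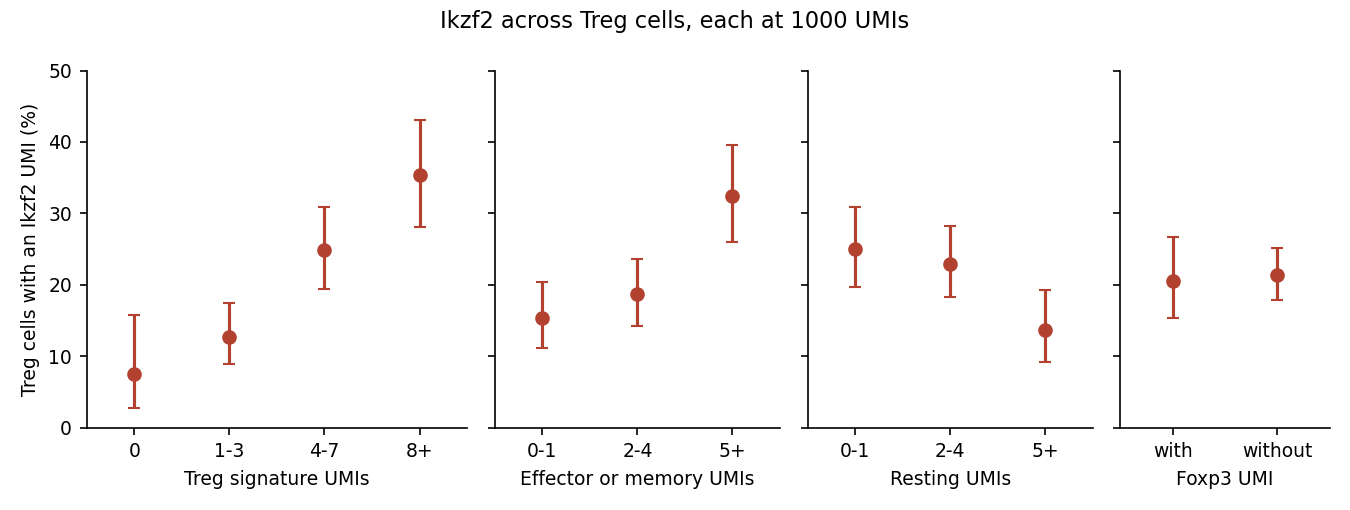
Percentage of Treg cells with an Ikzf2 UMI, each cell at 1000 UMIs, by the cell's UMIs of the Treg signature, effector or memory and resting lists and by Foxp3; bars are exact 95% intervals that cover counting error only. The share runs from 7.59% to 35.3% over the signature classes and is 20.6% and 21.4% with and without a Foxp3 UMI.

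Treg cells with 1 and with 2 or more Helios UMIs were also set side by side. The signature averaged 4.36 (4.19 to 4.54) UMIs per cell in Treg cells with 0 Helios UMIs, 6.88 (6.39 to 7.41) with 1 and 7.36 (6.65 to 8.13) with 2 or more. Satb1 was present in 26.6% (23.1% to 30.4%), 12.6% (6.89% to 20.6%) and 9.43% (3.13% to 20.7%) of these cells. The intervals of the upper 2 classes overlapped for both measures. In these 2 classes the effector list averaged 5.24 (4.81 to 5.70) and 6.25 (5.59 to 6.96) UMIs per cell. The resting list averaged 2.88 (2.56 to 3.23) and 2.25 (1.86 to 2.69). Tox, in contrast to its higher level in Helios UMI cells, stood at 0.505 (0.377 to 0.662) and 0.245 (0.131 to 0.419). Overlap of intervals does not exclude a difference, and a difference between these 2 classes was not tested.

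The few Tconv cells with a Helios UMI also differed from other Tconv cells in these lists. With all UMIs they numbered 30, and 0 of 30 had a Foxp3 UMI, which allows up to 11.6% of such cells to have one by the exact interval. This bounds cells with a UMI, not cells that express Foxp3, since a Foxp3 UMI was present in 36.4% of Treg cells. A follicular helper UMI was present in 17 of the 30 (56.7%) and in 23.1% of the other 1270 cells, and a Treg signature UMI in 18 of 30 and in 35.3%. Median depth was 1656 and 1508 UMIs, 0 of the 30 carried a barcode also found in the Treg library, and 0 were called doublets.

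At 1000 UMIs the classes held 19 and 1089 Tconv cells. The follicular helper list averaged 1.42 and 0.264 UMIs per cell, a log2 ratio of 2.43 (1.81 to 3.0), over draws median 2.31, range 0.90 to 2.79. The Treg signature gave 1.81 (1.23 to 2.34), over draws median 1.74, range 1.03 to 2.31. This sum held 30 UMIs in the 19 cells, and only 6 of the 28 signature genes could be measured. Of these, 4 were 2-fold or more higher and 0 were 2-fold or more lower. Tnfrsf9 and Tnfrsf18 had 0 UMIs in the 19 cells. The effector list gave 1.23 (0.93 to 1.51), over draws median 1.13, range 0.77 to 1.51, and the Tconv list -1.17 (-1.75 to -0.64), over draws median -0.72, range -1.57 to -0.34. Of 16 measured effector genes 10 were 2-fold or more higher and 0 were 2-fold or more lower, where 20.6% of 6070 genes were 2-fold or more higher and 3.08% 2-fold or more lower. The TCR response list gave -0.54 (-1.68 to 0.39), over draws median 0.19, range -1.02 to 0.95, not distinguishable from level. Whether these ratios differ between the libraries was not tested.

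Other measures moved with this class. Ribosomal protein genes took 25% of UMIs in the 19 cells and 32.9% in the others, and with them left out of the total the signature ratio was 1.65 and the effector ratio 1.07. Ppia and the ribosomal protein genes Rps20 and Rps15 were among the 6 lower genes ranked first. Cells with 3 or more UMIs of another cell type's markers were 1 of 19 (5.26%) and 1.56% of the others, and without them these ratios were 1.87 and 1.05, and that of the follicular helper list 2.53.

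Among single genes with 50 or more thinned UMIs in Tconv, 15.8% of 3193 were 2-fold or more higher in the 19 cells and 5.86% 2-fold or more lower, so a 2-fold difference was common. Tox, with 36.8 and 4.78 UMIs per 100 cells, had a log2 ratio of 2.95 (1.57 to 4.09, draws 2.83), and with all UMIs was present in 9 of 30 cells and in 4.72% of the others. S100a6 had a log2 ratio of 3.96 (2.95 to 4.87, draws 3.83) and Nrp1 one of 5.16 (3.21 to 6.96, draws 4.31), the latter from 5 and 8 UMIs. Igfbp4, a gene of the Tconv list, gave -2.88 (-5.93 to -1.03, draws -1.39). The macrophage gene Lyz1 ranked first among the higher genes, and all of its UMIs in the Helios class came from 1 cell.

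The other members were followed in the same way where 20 or more thinned cells had a UMI. Treg cells with an Ikaros UMI had a TCR response ratio of -0.71 (-1.01 to -0.42), over draws median -0.42, range -0.71 to -0.20. Their signature ratio was -0.21 (-0.35 to -0.07), over draws median -0.09, range -0.22 to 0.09, and their resting ratio 0.28 (0.13 to 0.43), over draws median 0.18, range -0.02 to 0.33. In Tconv cells with an Ikaros UMI the effector list gave -0.22 (-0.35 to -0.08), over draws median -0.15, range -0.25 to -0.04. Of these 4 Ikaros ratios, 2 kept their sign in all draws, those of the TCR response list in Treg and the effector list in Tconv.

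Aiolos, Eos and Pegasus rested on 24, 23 and 22 Treg cells. Aiolos UMI cells had a follicular helper ratio of 1.41 (0.92 to 1.87), over draws median 1.21, range -0.03 to 1.71. Eos UMI cells had a TCR response ratio of 0.76 (0.34 to 1.16), over draws median 0.67, range -0.65 to 1.35. Both ranges over draws reached below 0. In the Aiolos class B cell markers moved too, with a ratio of 1.46 (0.96 to 1.92) from 41 UMIs, present in 4.17% of the 24 cells and 5.32% of the others, and their part in the result was not tested. Pegasus UMI cells had a Tconv list ratio of 1.06 (0.67 to 1.43), over draws median 0.78, range 0.33 to 1.16. A UMI of that list was present in 50% of them and 57.8% of the others, with medians of 0.5 and 1, so that the higher sum rested on those cells alone. In 43 Tconv cells with a Pegasus UMI the TCR response ratio was -1.0 (-1.85 to -0.27), over draws median -0.19, range -1.0 to 0.44. These ratios were picked from 15 lists a class after their values were seen and are given as a description. They were neither the largest nor the steadiest. The Notch list gave -1.94 (-4.22 to -0.38) in Aiolos UMI cells of Treg, from 3 UMIs, over draws median -1.87, range -3.47 to -0.28. In Eos UMI cells of Treg it gave -1.13 (-2.76 to 0.11), from 5 UMIs, over draws median -1.03, range -3.18 to -0.10. In Ikaros UMI cells of Tconv it gave 0.40 (0.10 to 0.70), over draws median 0.21, range 0.04 to 0.59. Other lists kept their sign in all draws too. TCR response in Pegasus UMI cells of Treg gave -0.51 (-1.20 to 0.09), over draws median -1.11, range -2.38 to -0.04. The resting list in Eos UMI cells of Treg gave 0.03 (-0.31 to 0.36), over draws median 0.53, range 0.03 to 0.95. Pegasus UMI cells of Tconv gave 0.19 (-0.02 to 0.39) for resting genes, over draws median 0.19, range 0.03 to 0.42. For interferon genes they gave 0.36 (0.02 to 0.68), over draws median 0.48, range 0.04 to 0.87.

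Between the libraries, genes of the NuRD and co-repressor, cereblon ligase and Foxp3 partner lists were mostly level. Of 16 measured NuRD and co-repressor genes 1, Gatad2b, was 2-fold or more higher in Treg, from 24 and 14 UMIs, and 0 were 2-fold or more lower, with a median of 0.15 beside 0.14 for all genes. Hdac1 gave a log2 ratio of 0.88 (0.63 to 1.13), Chd4 one of 0.18 (0.04 to 0.32) and Chd3, another remodelling ATPase of the complex, one of -0.39 (-0.74 to -0.04). Crbn, the substrate receptor of the cereblon ligase, gave -0.44 (-0.95 to 0.06), and 0 of 5 ligase genes passed a 2-fold difference. Of 17 measured Foxp3 partner genes, 3 were 2-fold or more higher and 0 lower. Over all 8988 genes, 8.61% were 2-fold or more higher and 3.6% 2-fold or more lower. The 3 higher partner genes were Foxp3 itself, Gata3, a helper lineage factor, at 1.10 (0.85 to 1.36), and Irf4, a factor of effector Tregs, at 2.26 (1.21 to 3.43).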

How the data were processed

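The authors deposited raw UMI counts, whole numbers, for each gene in each cell. TopHat2, SAMtools and mm10 are named in the submitters' processing notes, without roles; the UMI counter, its strand setting and cell filters are not stated. Groups come from the cell titles. Counts were summed per library and divided by all UMIs in genes. Ratios have exact conditional intervals, levels exact Poisson and shares exact Clopper-Pearson intervals, at 95%. No fold was printed against a class at 0. Cells were thinned to 1000 UMIs without replacement (numpy 2.4.6, scipy 1.17.1), with 1 seed and over 50 draws. Class sizes and first-draw ratios use the classes of the first draw. Each of the 50 draws set its classes anew, so cells could enter or leave a class between draws.

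Named genes were the 5 members, Foxp3 and Nrp1, then, among genes with 50 or more thinned UMIs, the 10 (Treg) or 6 (Tconv) per direction whose interval bound nearest to level lay farthest from it, up to 4 most abundant members of each list and the most abundant marker of each other cell type. Tnfrsf4, Tnfrsf1b, Cd83, Cd44, Ahnak, Sin3a, Hdac1, Chd3, Gatad2b and Irf4 were named after their values were seen. The members, 15 gene lists and 7 marker lists were chosen with earlier results of these data known. Doublets called by scrublet in scanpy 1.11.5 (1 Treg, 12 Tconv cells) were kept. TMM factors came from edgeR 4.0.16. The ratio step was tested on simulated independent counts, which do not test the intervals under clumping, and the thinning step on cells of these data.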

Additional observations from a re-analysis of the deposited data

How the results depend on the processing

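Of 50 library ratios of the 5 members under other settings, 49 stayed inside their main interval and 0 changed direction; Ikzf1 thinned to 1000 UMIs gave -0.39. TMM factors shifted every log2 ratio by -0.16, and leaving ribosomal protein genes out of the total by -0.13. The share of Treg cells with an Ikzf2 UMI was 12.3% at 500 UMIs and 29.4% without thinning, and that of Tconv cells 0.927% at 500 UMIs. In Treg the signature ratio stayed between 0.61 and 0.76 and the Tconv list between -1.20 and -0.88. The effector ratio was 0.27 at 500 UMIs, 0.30 with another seed, 0.48 as the median of 50 draws and 0.81 with classes of at least 2 Ikzf2 UMIs. With that class rule the resting ratio was -0.61 and the TCR response ratio 0.34; the latter was 0.83 with another seed. The follicular helper ratio was 0.72 without thinning, 0.44 at 500 UMIs, 0.68 as a median of genes and 0.71 without Tox. In Tconv the signature ratio was 2.77 at 500 UMIs, the Tconv list -0.60 without thinning and -0.48 as a median of genes, the effector ratio 1.74 at 500 UMIs and 1.62 with at least 2 Ikzf2 UMIs, and the TCR response ratio 0.41 without thinning. For these differences the cause was not tested, except that other draws of 1000 UMIs alone moved the values as given. Settings that use at least 2 Ikzf2 UMIs, the 50 draws, lists without their leading gene and cells left out as richest in a gene or list were chosen after seeing the data. No paired analysis was possible because the replicate numbers in the titles number cells of 1 library per group. Depth limits Ikzf3, Ikzf4 and Ikzf5 most, which had 22 to 56, 8 to 46 and 43 to 78 UMIs per library.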
